A study of Mus musculus with 8 samples.

Results

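The genes described here serve the entry, folding and quality control of proteins in the endoplasmic reticulum (ER). They are 39 genes, chosen by name: the transcription factor gene Xbp1 and the 3 stress sensors of the unfolded protein response, ER chaperones and disulfide isomerases, ER-associated degradation genes, and subunits of the translocon and signal peptidase. All 39 were found among the 11783 genes of the deposited expression table, by an exact match of the gene name. The set was put together after the values of Xbp1 at both ages were known, so the differences between ages below are descriptions of these libraries and support no claim about the set.

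Expression was measured by RNA-seq in granulosa cells, the somatic cells that surround the oocyte, from ovaries of C57BL/6 mice without a stated genetic change or treatment. There were 4 libraries from postnatal day 1 (PND1) and 4 from postnatal day 4 (PND4), a span that covers primordial follicle assembly in mice. The labels leave unsaid how many animals stand behind each library, so intervals and p-values reflect only how these libraries scatter, which may be technical. The values are FPKM, fragments scaled to transcript length and to the fragments mapped in a library, so levels can be set side by side between genes.

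Proteins bound for secretion, the plasma membrane or the lysosome enter the ER through the SEC61 channel, lose their signal peptide to signal peptidase and fold with the help of the HSP70-type chaperone BiP (gene Hspa5), lectin chaperones and protein disulfide isomerases. When unfolded protein accumulates, the sensors IRE1 alpha (gene Ern1), PERK (Eif2ak3) and ATF6 (Atf6) start the unfolded protein response. IRE1 alpha cuts a short segment out of the Xbp1 messenger RNA, and the spliced form encodes the active transcription factor, which raises many of the other genes described here, while ATF6 acts through a promoter element called the ERSE. Granulosa cells secrete hormones, growth factors and matrix, and so use this machinery constantly.

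The Xbp1 segment is shown because the values below are for the whole gene and do not separate the spliced from the unspliced form. In the reference transcript of GENCODE M21 the IRE1 cut motif, CCGCAG or CTGCAG, occurs at 1 pair of places that are 26 bases apart, the length of the segment IRE1 is known to remove. Both cuts lie in exon 4 of 5, inside the coding sequence, at chr11:5524279-5524304 on the plus strand of GRCm38. Capitals mark the 26 bases between the cuts.
Xbp1: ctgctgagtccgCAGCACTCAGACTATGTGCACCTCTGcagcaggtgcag

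Promoter windows of 300 bases (250 before to 50 after the start, RefSeq, GRCm38.p6) were matched for 32 of the 39 genes and searched on both strands for the ERSE, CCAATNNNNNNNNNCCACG. It was present in 8 of the 32, against 37 of 27025 genes with such a window (0.137%). Among listed genes with a window it was present in 14 of 7968 (0.176%), and both counts include the 8. The ERSE-II, ATTGGNCCACG, was present in 2 of the 32 (6.25%), against 0.0444% of all. TGACGTG, the core of the UPRE bound by XBP1, was present in 1 of the 32, Hspa5, against 2.22% of all windows. The genes were chosen by name, many for known roles in this response, so nothing is read from these shares. The matches describe letters in these windows and do not show that a factor binds there. Capitals below mark the fixed letters of each element, and each sequence is written along its gene's own strand, so that an element on the other strand reads CGTGG first and ATTGG last.
Hspa5 (chr2:34772020-34772048, plus strand): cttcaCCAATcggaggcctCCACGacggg
Hsp90b1 (chr10:86705633-86705661, minus strand): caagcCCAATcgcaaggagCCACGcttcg
Hsp90b1, other strand (chr10:86705528-86705556, minus strand): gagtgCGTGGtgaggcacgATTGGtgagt
Calr, other strand (chr8:84847070-84847098, minus strand): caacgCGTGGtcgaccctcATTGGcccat
Canx (chr11:50325795-50325823, minus strand): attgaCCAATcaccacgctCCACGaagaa
Pdia6 (chr12:17266486-17266514, plus strand): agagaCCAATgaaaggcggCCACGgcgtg
Dnajc3 (chr14:118937822-118937850, plus strand): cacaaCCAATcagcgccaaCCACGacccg
Creld2, other strand (chr15:88819515-88819543, plus strand): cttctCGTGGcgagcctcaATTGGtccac
Syvn1 (chr19:6046527-6046555, plus strand): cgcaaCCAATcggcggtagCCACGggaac
Herpud1, ERSE-II (chr8:94386372-94386392, plus strand): cgctgATTGGgCCACGttgga
Dnajb11, ERSE-II (chr16:22857847-22857867, plus strand): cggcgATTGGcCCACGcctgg
Counted to the RefSeq start, the ERSE of Hspa5 ended 46 bases before it and that of Syvn1 25 bases before it, while Hsp90b1 carried 2, at 193 and 88 bases. GENCODE M21 starts the Hspa5 gene farther upstream than RefSeq, so that this element lies inside the GENCODE gene. The genes that carry an element include the chaperones BiP, GRP94, calreticulin and calnexin, and none encodes a translocon or signal peptidase subunit. Windows of Atf6, Manf, Hyou1, Derl1, Sec61a1, Ssr2 and Spcs3 were not analysed here. Of the 10 with either element 5 had a positive and 5 a negative difference (PND4 minus PND1 on the log2(FPKM + 1) scale), from -0.35 for Syvn1 to 0.63 for Herpud1.

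Most of these genes were abundant. The median of their mean levels was 29.9 FPKM, against 8.35 FPKM over all listed genes, and 36 of 39 lay above that overall median, 12 of them in the top 10% of genes. Calr, for the calcium-binding lectin chaperone calreticulin, had the highest mean, 212 FPKM, which ranked 207 of 11783. P4hb, for the disulfide isomerase PDI, followed at 204 FPKM, then Ssr3 at 149, Pdia3 at 145 and Canx at 114 FPKM. The 3 genes below the overall median were Sel1l, Ern1 and Eif2ak3.

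**Figure D1:**
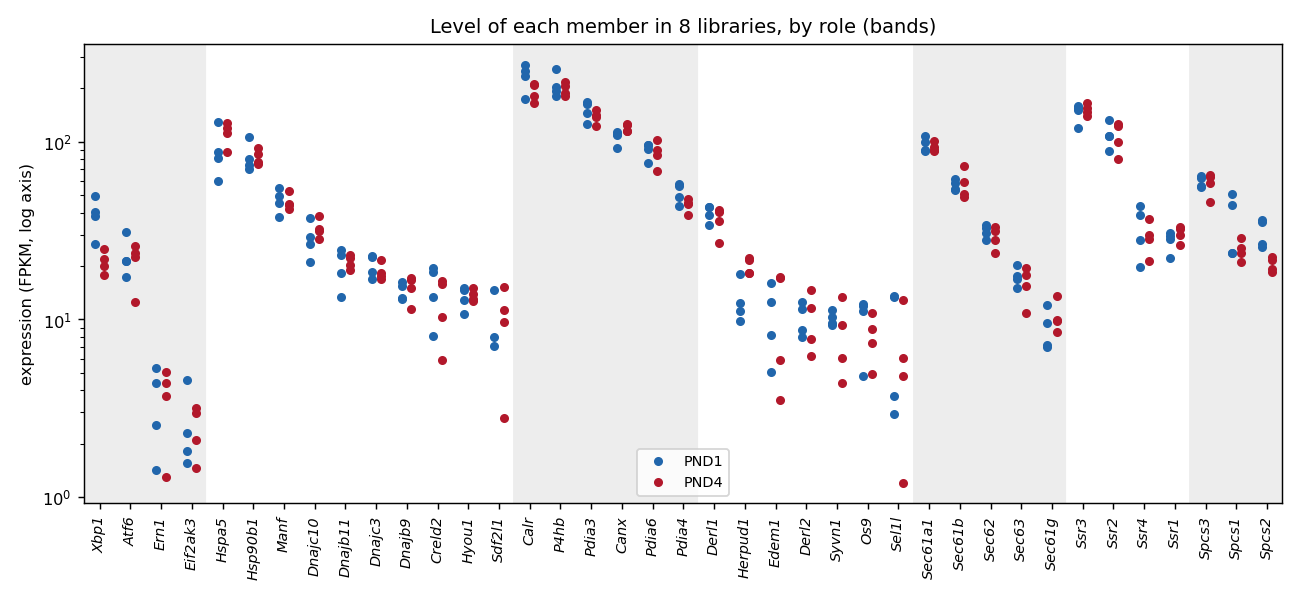
Level of each of the 39 genes in FPKM on a log axis, 1 point per library, PND1 in blue and PND4 in red, with genes grouped by role in shaded and white bands and ordered by mean level within a band. Levels run from 1.21 FPKM for Sel1l to 272 FPKM for Calr, and the points of both ages overlap for most genes; the single value at 0, Sdf2l1 in PND1 replicate 1, cannot be drawn on this axis.

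Over all 10756 genes tested for a difference between ages, 1 passed (limma, adjusted p under 0.05), which is 0.0093% of genes, and it is not among the 39. All 39 were tested and 0 were called, with a smallest adjusted p of 0.556, for Xbp1. At an unadjusted p under 0.05 there were 3, Herpud1 higher and Xbp1 and Spcs2 lower at PND4, or 3 of 39 where 5.9% of all genes tested had such a p (4.06% higher and 1.84% lower). Over all genes this balance turned with scaling, from 437 higher and 198 lower to 243 and 323 with median-of-ratios factors and 232 and 345 with upper-quartile factors; with the latter Calr and Pdia4 joined the 3, both lower. The authors' deposited table gives 0 of the 39 and 0 of 11783 genes a q-value under 0.05, and a p-value under 0.05 to 3 of the 39 and to 6.55% of all genes. The FPKM of the 4 PND1 libraries did not overlap those of the 4 PND4 libraries for 4 of the 39, 2 higher and 2 lower at PND4, beside 4.24% of all genes tested (3.16% higher and 1.08% lower). Since the set was chosen with these differences known, nothing is read from these shares. The median difference of the 39 was -0.057 on the log2(FPKM + 1) scale, with 14 positive and 25 negative, where all genes tested had a median of 0.078. With median-of-ratios scaling the medians were -0.13 and 0.0089, and 9 of the 39 were positive and 30 negative. Differences within 0.2 of 0 were had by 25 of the 39, and by 46.7% of all genes tested.

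Xbp1 (ENSMUSG00000020484, chromosome 11 from 5520659 to 5525893 on the plus strand, GRCm38) had the most negative difference of the 39. It stood at 40.5, 38.1, 26.7 and 49.3 FPKM in PND1 replicates 1 to 4 and at 25.1, 22.0, 17.9 and 20.1 FPKM in PND4 replicates 1 to 4. Every PND4 library was below every PND1 library, but the lowest PND1 value, in replicate 3, was close to the highest PND4 value, in replicate 1. The means were 38.6 ± 9.33 and 21.3 ± 3.05 FPKM (SD, n = 4 each), a ratio of 0.550, and the log2 difference was -0.81 (95% interval -1.24 to -0.38). It stayed between -0.97, without PND1 replicate 3, and -0.68, without PND1 replicate 4, whichever library was left out. With median-of-ratios scaling the difference was -0.88, but the ages then overlapped, with PND1 from 25.5 to 46.7 and PND4 from 16.5 to 26.8 scaled FPKM. With upper-quartile scaling it was -0.89 and they did not, with PND1 from 26.6 and PND4 up to 26.2. In the authors' deposited table Sel1l, not Xbp1, had the largest PND1 over PND4 fold of the 39, at 1.80 against 1.70.

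**Figure D2:**
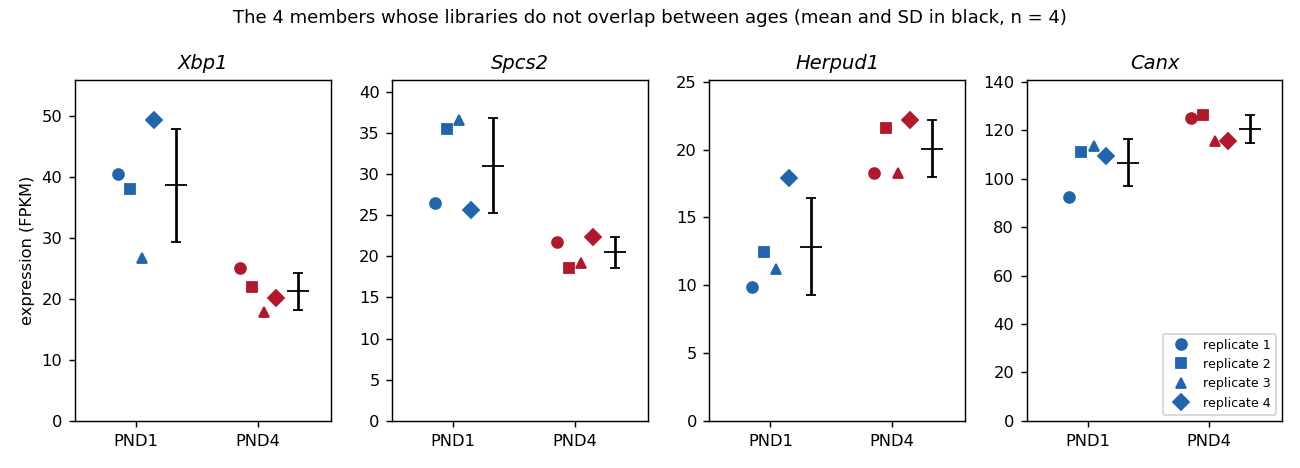
FPKM per library (axis from 0) of the 4 genes whose libraries do not overlap between ages, PND1 in blue and PND4 in red, with 1 marker shape per replicate number and the mean and SD (n = 4) in black. Xbp1 and Spcs2 are lower and Herpud1 and Canx higher at PND4, and in the Xbp1, Herpud1 and Canx panels the nearest values of the ages almost meet.

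The 3 sensors overlapped between ages. Atf6, for the membrane-bound factor that is cut in the Golgi to release a transcription factor, stood at 17.3, 21.5, 30.9 and 21.2 FPKM at PND1 and at 12.6, 25.997, 22.5 and 23.7 FPKM at PND4. PND4 replicate 1 was the lowest library and PND1 replicate 3 the highest, and the log2 difference was -0.11 (95% interval -0.66 to 0.43). Ern1, for the kinase and endonuclease IRE1 alpha, was far less abundant, at 1.43, 2.54, 5.30 and 4.41 FPKM at PND1 and 1.30, 5.07, 3.71 and 4.39 FPKM at PND4. The libraries numbered 1 had the lowest Ern1 at both ages. Eif2ak3, for PERK, which phosphorylates eIF2 alpha and so slows translation, stood at 4.58, 1.55, 2.31 and 1.82 FPKM at PND1 and at 2.99, 1.46, 3.19 and 2.10 FPKM at PND4. At these low levels the 95% intervals of Ern1 (-0.88 to 1.01) and Eif2ak3 (-0.86 to 0.83) leave room for changes as large as that of Xbp1.

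BiP, the chaperone that binds the 3 sensors and helps to keep them inactive, is encoded by Hspa5 (chromosome 2 from 34771970 to 34777547). Hspa5 stood at 59.9, 129, 87.6 and 81.6 FPKM at PND1 and at 128, 113, 87.9 and 120.3 FPKM at PND4. PND1 replicate 2 was the highest of all 8 libraries and PND1 replicate 1 the lowest, so the PND1 values enclosed those of PND4. The means were 89.5 ± 28.9 and 112 ± 17.3 FPKM (SD, n = 4 each), with a log2 difference of 0.36 (95% interval -0.10 to 0.82) that was 0.19 without PND1 replicate 1 and 0.55 without PND1 replicate 2. Hspa5 therefore had a difference opposite in sign to that of Xbp1 in these libraries.

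Hsp90b1, for the HSP90-type chaperone GRP94, stood at 70.1, 79.9, 74.0 and 106 FPKM at PND1 and at 86.0, 92.5, 75.2 and 77.1 FPKM at PND4, and the ages overlapped. Its log2 difference was 0.017 (95% interval -0.30 to 0.34), and turned to -0.060 with median-of-ratios scaling. Exons of Hsp90b1 share 415 bases with the opposite-strand gene 1810014B01Rik, and it is not known here whether strand was used in counting. Sdf2l1, which keeps BiP complexes from releasing clients early, was listed at 0 in PND1 replicate 1 and stood at 7.10, 7.99 and 14.6 FPKM in the other PND1 libraries. At PND4 it stood at 2.79, 9.71, 11.3 and 15.3 FPKM. Its log2 difference of 0.71 was the most positive of the 39, and rested on the 0, since it was -0.13 without that library.

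The other 7 genes of this group had differences from -0.29 to 0.21, 4 positive and 3 negative, and overlapped between ages. They include the BiP co-chaperone genes Dnajb9, Dnajb11, Dnajc3 and Dnajc10, whose J domains stimulate the BiP ATPase, and Hyou1, which recharges BiP with nucleotide. Hyou1 stood between 10.7 and 15.02 FPKM and Dnajc3 between 16.9 and 22.9 FPKM in the 8 libraries. Manf and Creld2, small secreted ER stress proteins, stood at 37.7 to 54.7 and at 5.93 to 19.5 FPKM. Creld2 had 19.5 FPKM in PND1 replicate 4 and 5.93 in PND4 replicate 2, a wider range than its difference of -0.29 between ages.

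**Figure D3:**
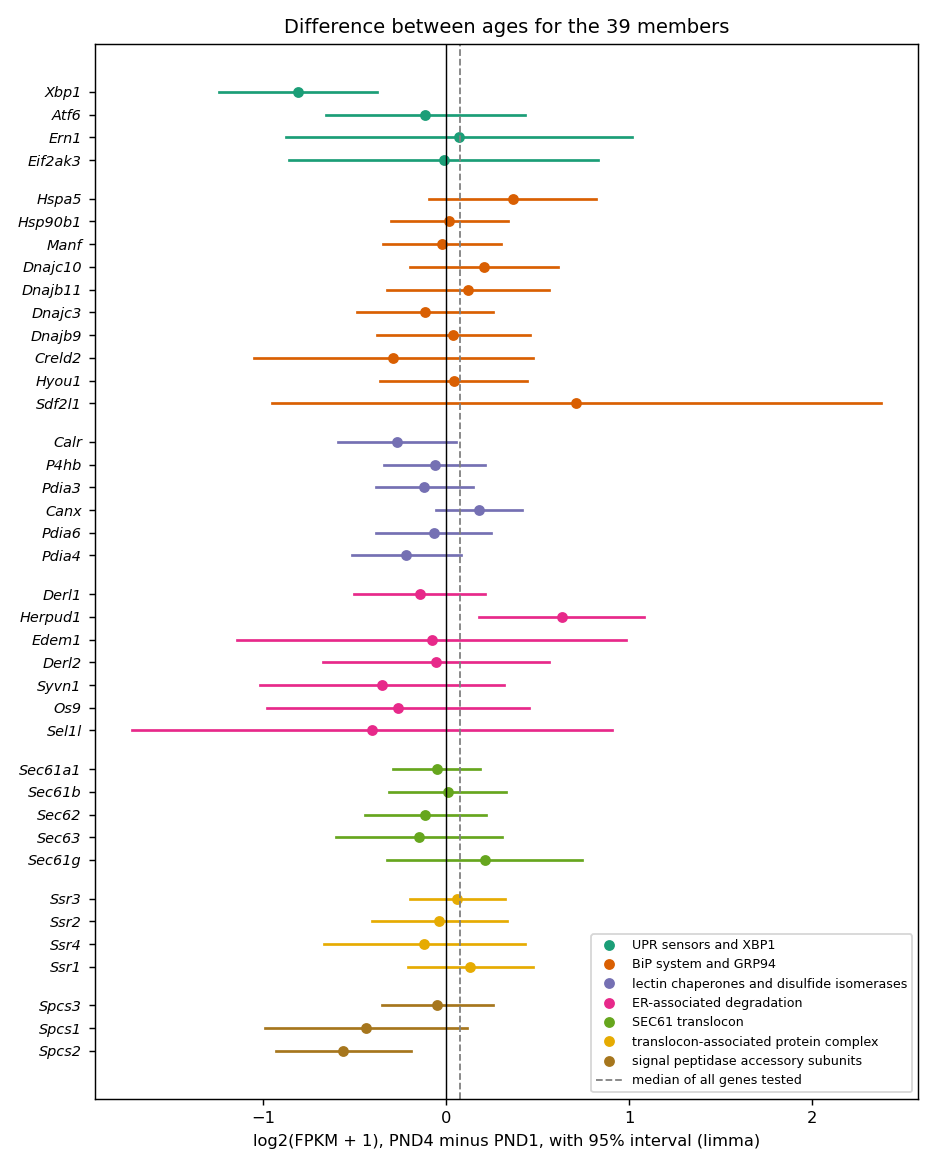
Difference between ages on the log2(FPKM + 1) scale, PND4 minus PND1, for each of the 39 genes, with its 95% interval from limma; colours mark the role groups and the dashed line the median of all genes tested, 0.078. The intervals of Xbp1, Spcs2 and Herpud1 leave out 0, and the widest are those of Sdf2l1, Sel1l, Edem1 and the low-level sensors.

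Among the lectin chaperones and disulfide isomerases, which hold glycoproteins and form their disulfide bonds, 5 of 6 had negative differences. Calr stood at 251, 236, 175 and 272 FPKM at PND1 and at 180.3, 209, 212 and 165 FPKM at PND4. PND1 replicate 3 lay among the PND4 values and the other 3 PND1 libraries above all of them. The log2 difference was -0.27 (95% interval -0.59 to 0.05), and -0.40 without PND1 replicate 3. Canx, for calnexin, the membrane-bound partner of calreticulin, went the other way, at 92.5, 111, 113 and 109 FPKM at PND1 and 125, 126, 115 and 116 FPKM at PND4. Every PND4 library was above every PND1 library, though PND1 replicate 3 came close to the lowest PND4 value. The log2 difference was small, 0.18 (95% interval -0.055 to 0.41). It was 0.11 without PND1 replicate 1, and 0.10 and 0.095 with the median-of-ratios and upper-quartile scalings, under both of which the ages overlapped. P4hb stood at 194, 258, 181 and 204 FPKM at PND1 and at 182, 218, 189 and 207 FPKM at PND4, with a difference of -0.064. Pdia3, Pdia4 and Pdia6, for further isomerases, had differences of -0.12, -0.22 and -0.068, each with overlapping ages.

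Misfolded proteins leave the ER for the proteasome through a membrane complex around the ubiquitin ligase HRD1 (gene Syvn1) and its partner SEL1L, with HERPUD1 as an organising subunit, derlins in the channel and the lectins EDEM1 and OS9 delivering clients. Of these 7 genes, 6 had negative log2 differences, from -0.41 for Sel1l to -0.057 for Derl2, all with intervals that include 0. Edem1 was among the 6, though its mean FPKM was slightly higher at PND4, at 10.5 and 11.0. Herpud1 (chromosome 8 from 94386438 to 94395377) had the only positive difference of the 7. It stood at 9.86, 12.5, 11.2 and 17.9 FPKM at PND1 and at 18.3, 21.6, 18.2 and 22.2 FPKM at PND4. Every PND4 library was above every PND1 library, with PND1 replicate 4 just below the nearest. The means were 12.9 ± 3.54 and 20.1 ± 2.11 FPKM (SD, n = 4 each), and the log2 difference was 0.63 (95% interval 0.18 to 1.08). With median-of-ratios scaling it was 0.56 and the ages overlapped, at 10.7 to 17.0 against 16.9 to 20.2 scaled FPKM.

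Derl1, for derlin-1, was the most abundant of the group, at 42.9, 42.8, 34.2 and 38.8 FPKM at PND1 and 27.0, 35.9, 40.4 and 41.3 FPKM at PND4. Its difference of -0.14 was -0.014 without PND4 replicate 1. The remaining 5 genes, Edem1, Derl2, Syvn1, Os9 and Sel1l, had mean levels of 7.34 to 10.7 FPKM. Apart from Sdf2l1 with its 0, Sel1l and Edem1 had the widest fold ranges between libraries of the 39. Sel1l ran from 1.21 FPKM in PND4 replicate 1 to 13.6 FPKM in PND1 replicate 4, an 11.3-fold range, and within PND1 it stood at 3.70, 2.92, 13.5 and 13.6 FPKM. Edem1 ran from 3.499 to 17.3 FPKM, both at PND4. For Sel1l and Edem1 the libraries of 1 age thus spanned more than the gap between the age means. The median difference of the 7, -0.14, was 0.072 without PND4 replicate 1.

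The 5 SEC61 channel genes overlapped between ages, with differences from -0.15 to 0.21. Sec61a1, for the pore-forming subunit, stood at 90.5, 108, 100.2 and 89.3 FPKM at PND1 and at 89.99, 93.3, 88.8 and 101 FPKM at PND4. Its log2 difference of -0.053 had one of the narrowest intervals, from -0.29 to 0.19. Exons of Sec61a1 share 549 bases with the opposite-strand gene Gm44170, and whether strand was used in counting is not known here. Sec61b, for the small beta subunit, stood at 53.3, 58.6, 54.6 and 62.2 FPKM at PND1 and at 51.0, 49.0, 59.4 and 73.2 FPKM at PND4, with a difference of 0.0086 (95% interval -0.31 to 0.33). A near copy of Sec61b, Gm10320, matches it with 98.3% identity over 84% of the transcript and was listed at 0 to 2.85 FPKM. Another, Gm5870, matches with 95.7% identity over 50% and was listed at 0.138 to 4.81 FPKM, lower at PND4 without overlap. Some Sec61b reads may therefore be split or lost, and how many is not known here. Sec61g, for the gamma subunit, stood at 7.02 to 13.5 FPKM, well under the other subunits of the same 3-part channel. Parts of it match several pseudogenes, and the listed gene Gm10177 matches it with 100% identity over 420 bases, 22.6% of the transcript. Some Sec61g reads may likewise be split or lost, so its low level may be understated by an unknown amount. Sec62 and Sec63, which help BiP pull chains through the channel, had differences of -0.11 and -0.15.

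The translocon-associated protein complex, TRAP, is a 4-subunit complex (Ssr1 to Ssr4) beside the channel that helps some signal sequences to enter. Ssr3 stood at 119, 160.0, 151 and 155 FPKM at PND1 and at 141, 155, 147 and 165 FPKM at PND4, with a difference of 0.060 (95% interval -0.20 to 0.32) that was -0.018 with median-of-ratios scaling. Ssr2 stood at 88.5, 108, 107 and 133 FPKM at PND1 and at 125, 79.6, 123 and 100.5 FPKM at PND4, with a difference of -0.037. Ssr1 and Ssr4 were lower, at means of 29.0 and 30.8 FPKM, and Ssr4 ranged from 19.7 to 43.7 FPKM within PND1 alone. All 4 overlapped between ages.

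All 3 accessory subunits of signal peptidase had negative differences, with a median of -0.44. Spcs2 (chromosome 7 from 99837569 to 99863462) stood at 26.5, 35.4, 36.5 and 25.6 FPKM at PND1 and at 21.7, 18.6, 19.2 and 22.4 FPKM at PND4. Every PND4 library was below every PND1 library, and this held with both scalings. The means were 31.0 ± 5.74 and 20.5 ± 1.86 FPKM (SD, n = 4 each), a ratio of 0.660, and the log2 difference was -0.56 (95% interval -0.93 to -0.19), with -0.48 to -0.65 when any 1 library was left out. Spcs1 stood at 50.9, 44.3, 23.6 and 23.8 FPKM at PND1 and at 25.1, 28.8, 23.8 and 21.05 FPKM at PND4. Only PND1 replicates 1 and 2 were high, and the difference of -0.44 (95% interval -0.99 to 0.12) was -0.24 without replicate 1. Exons of Spcs1 share 252 bases with Glt8d1 on the opposite strand. Spcs3 stood at 64.3, 62.9, 56.3 and 55.5 FPKM at PND1 and at 45.7, 63.8, 58.5 and 64.7 FPKM at PND4, with a difference of -0.048 that turned to 0.061 without PND4 replicate 1. Sec11a and Sec11c, for the catalytic subunits, had differences of -0.12 and 0.53, and Sec11c was listed at 0 in PND1 replicate 1.

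Libraries differed from each other in these genes as well as by age. PND4 replicate 1 held the lowest value for 11 of the 39 and PND1 replicate 1 for 10, and these libraries also held the lowest value for 24.3% and 30.1% of all genes tested. They listed 1097 and 1234 genes at 0, the other 6 libraries between 222 and 858. Without both of them the median difference of the 39 moved from -0.057 to 0.00037, with 20 positive and 19 negative, while Xbp1 stood at -0.86, Spcs2 at -0.66 and Herpud1 at 0.57. The summed FPKM of the 39 was 0.370% to 0.449% of all listed FPKM, lowest in the same 2 libraries, and did not separate the ages. The spread within an age was ordinary for genes of this level, with a median coefficient of variation of 17.2%, against 18.7% over the 3418 genes tested with a mean FPKM in the middle range of these genes.

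**Figure D4:**
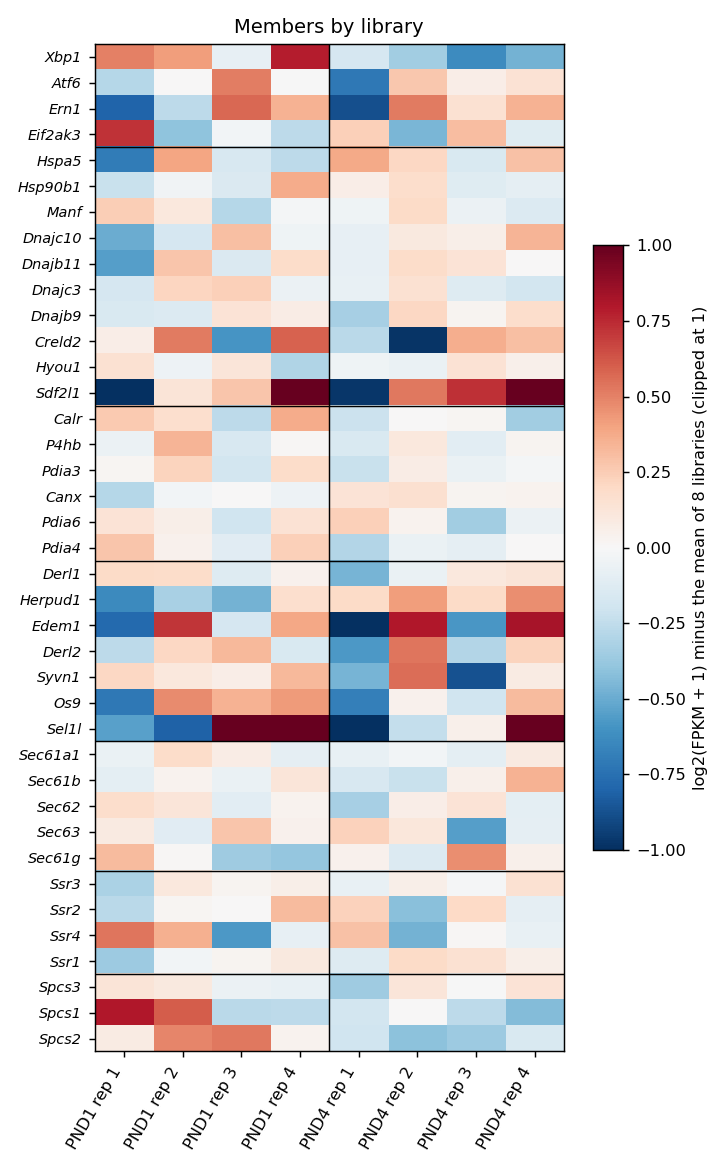
Deviation of each gene (rows, by role) in each library (columns) from its mean over 8 libraries on the log2(FPKM + 1) scale, red above and blue below, with the colour clipped at 1. Xbp1 is blue in all 4 PND4 libraries and faintly so in PND1 replicate 3. Edem1, Os9 and Sel1l are blue in both libraries numbered 1, but also elsewhere, such as Sel1l in PND1 replicate 2 and Edem1 in both libraries numbered 3.

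Other ER and stress genes were read from lists of 142 genes in all, of which 139 were tested and 0 were called (limma, smallest adjusted p = 0.296). At an unadjusted p under 0.05, 8 of these were higher and 3 lower, beside the 4.06% and 1.84% of all genes tested, which reverse in order with scaling. Differences were positive for 89 and negative for 50, and over all genes tested for 6486 and 4270. Without overlap between ages, 7 were higher and 3 lower at PND4, beside 3.16% and 1.08% of all genes tested. The lists were chosen with earlier results of these data known, so nothing is read from these counts. The 12 oligosaccharyltransferase genes, whose complex adds N-glycans beside the translocon, had a median difference of 0.050, with Ddost at 107 ± 5.75 and 104 ± 8.09 FPKM at PND1 and PND4 (SD, n = 4 each). The 26 other folding and redox genes tested had a median of 0.010. Of these, Ppib, for the ER prolyl isomerase cyclophilin B, stood at 255 ± 38.1 and 221 ± 27.0 FPKM, and Fkbp10, for a collagen-folding prolyl isomerase, at 76.6 ± 7.37 and 63.7 ± 4.56 FPKM with no overlap between ages.

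The 22 other targeting and translocation genes had a median of 0.030. Srpr, for the signal recognition particle receptor, stood at 51.9, 55.6, 50.6 and 54.0 FPKM at PND1 and at 46.4, 44.8, 41.6 and 42.7 FPKM at PND4, without overlap. Srp68, of the same list, was higher at PND4 without overlap. It stood at 12.1, 29.1, 40.2 and 34.8 FPKM at PND1 and at 40.9, 45.5, 42.4 and 43.4 FPKM at PND4. The 21 other degradation genes had a median of -0.013, and Vcp, for the ATPase that extracts clients from the membrane, was nearly level at 203 ± 9.39 and 211 ± 3.10 FPKM. The 24 ER-to-Golgi genes had a median of 0.037, and Tmed3 was higher at PND4 without overlap, at 21.9 ± 2.20 and 31.5 ± 4.90 FPKM. Kdelr2, for a receptor that returns escaped chaperones to the ER, stood at 121 ± 2.40 and 128 ± 8.84 FPKM.

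The 10 other transducers of the response had a median of 0.19, with Serp1 at 43.0 ± 5.64 and 49.2 ± 8.34 FPKM. The PERK and ATF4 arm, the branch that acts through translation and amino acid supply, had a median difference of 0.38 over 15 genes. All 15 were positive, from 0.029 for Cebpb, and 5 were higher at PND4 without overlap, where 3.16% of all genes tested were. This list too was chosen with earlier results known, so nothing is read from that share. The scalings lowered the median of all genes tested from 0.078 to 0.0089 and 0.0027, and the signs of this list under them are not given here. Atf4 stood at 83.5, 75.1, 111 and 70.9 FPKM at PND1 and at 173, 148, 114 and 162 FPKM at PND4, and Trib3, for a pseudokinase that ATF4 induces, at 9.27 ± 2.79 and 20.9 ± 5.02 FPKM. Within a library the ratio of Xbp1 to Atf4 FPKM was 0.485, 0.507, 0.240 and 0.695 at PND1 and 0.145, 0.149, 0.157 and 0.124 at PND4, a pairing chosen after both genes' values were seen. Ddit3, for the stress factor CHOP, had a difference of 0.056 and overlapped between ages.

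**Figure D5:**
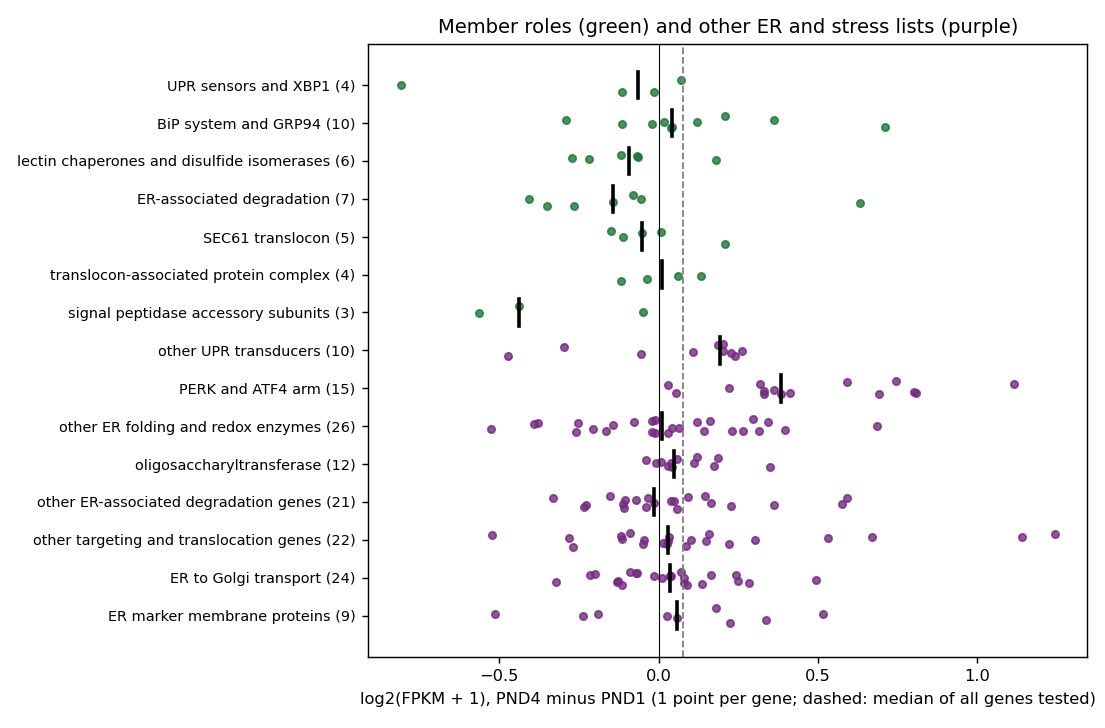
Difference between ages on the log2(FPKM + 1) scale, PND4 minus PND1, 1 point per gene, for the 7 role groups of the 39 genes (green) and 8 lists of other ER and stress genes (purple), with the number tested in brackets, each list's median as a black bar and the median of all genes tested as a dashed line. The PERK and ATF4 arm lies to the right of 0, at a median of 0.38 with its nearest point at 0.029, and Xbp1 is the leftmost point, at -0.81.

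Markers of the labelled cell type were present in every library, with 11 of 11 granulosa markers listed, summing to 968 to 1289 FPKM at PND1 and 983 to 1232 FPKM at PND4, and Foxl2 at 10.5 to 26.2 FPKM. Krt8 and Krt18, which surface epithelium also expresses, carried most of that sum. Without them, a step chosen after seeing the values, the other 9 summed to 235 to 318 FPKM at PND1 and 283 to 328 FPKM at PND4. Of the 11, 6 had a positive and 5 a negative difference. Gatm was higher at PND4 without overlap, at 35.4 to 62.3 against 62.8 to 84.0 FPKM. Wnt4 was lower without overlap, at 17.96 to 23.7 against 12.1 to 17.94 FPKM. Beside these 2, 3.16% of all genes tested were higher and 1.08% lower without overlap. Other cell types were visible beside the granulosa markers. Erythroid markers (3 of 6 listed, all globins) summed to 17.1 to 48.9 FPKM at PND1 and 0.268 to 11.4 FPKM at PND4, without overlap, as for Xbp1. Oocyte markers (10 of 12 listed) summed to 12.9 to 57.2 FPKM at PND1 and to 208 FPKM in PND4 replicate 3, against 17.8 to 44.0 FPKM in the other PND4 libraries. Of the 9 tested, 5 had a positive and 4 a negative difference, from -1.77 for Figla to 2.32 for Zp3. At an unadjusted p under 0.05 (limma), 1 was higher and 2 were lower. Figla was lower at PND4 without overlap, at 1.87 to 7.99 against 0 to 1.25 FPKM. Stroma markers (10 of 10) summed to 183 to 204 and 197 to 257 FPKM, with 9 of the 10 at a positive difference, a median of 0.33, 3 with an unadjusted p under 0.05, all higher, and Dcn higher at PND4 without overlap. Surface epithelium markers (6 of 6) summed to 106 to 339 and 184 to 426 FPKM. Immune markers (4 of 7, without Ptprc) summed to 9.02 to 23.9 FPKM at PND1 and 3.11 to 57.1 FPKM at PND4, the highest in PND4 replicate 1, where Lyz2 alone gave 55.8 FPKM. Endothelial markers had 0 of 6 listed. Mitochondrially encoded genes summed to 100874 to 128798 FPKM at PND1, and to 123110 FPKM in PND4 replicate 1 and 82170 to 88101 FPKM in the other PND4 libraries. The part of these cells in the differences of Xbp1, Spcs2, Herpud1 and Canx was not tested, and in such bulk samples fewer cells of a type and less RNA per cell cannot be told apart. Immediate-early and heat shock genes, which cell dissociation can induce, summed to 520.2 to 660.1 FPKM at PND1 and 509 to 639 FPKM at PND4. Of these 14 genes, 6 had a positive and 8 a negative difference. At an unadjusted p under 0.05 (limma), 0 were higher and 2 lower at PND4, beside 4.06% and 1.84% of all genes tested.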

How the data were processed

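The submitters' processing notes name Trim Galore, HISAT2 and the GRCm38 build, without versions. FPKM values of 8 libraries stand in 1 table as deposited by the authors; its quantification program, annotation, strand setting and filter are not named in those notes. A comparison table that the authors deposited gives each gene a fold as a ratio, which the FPKM show to be PND1 divided by PND4, with the fold on the log2 scale, a p-value and a q-value. The test behind it is not given.

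Values were taken as log2(FPKM + 1), which understates changes of low genes. Of 11783 genes, the 10756 that reached 1 FPKM in 4 or more libraries were tested. Ages were compared with limma 3.58.1 (R 4.3.3, mean-dependent prior variance, no block) and adjusted by Benjamini-Hochberg over all genes tested at 0.05. The limma step was tested on simulated data. Low values of 2467 genes with 1 annotated transcript lay within 0.1 of whole fragments for at most 30.4% at the best-fitting depth, where 20% would by chance, so reads could not be recovered and depth is unknown. Positions and transcripts came from GENCODE M21 (11770 of 11783 identifiers found) and promoters from RefSeq. Near copies were sought with BLAST+ 2.17.0 at 95% identity. Python 3.11.15 and matplotlib 3.10.9 were used.

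The genes and lists were chosen with earlier results of these data known. Values per library are given for Xbp1 and the sensors, the 2 most abundant genes of each role, genes without overlap between ages, and the 3 largest differences each way. Genes of other lists are named by abundance (the highest 2) or lack of overlap (at most 4); Ddit3, Sec11a, Sec11c, Manf, Creld2, Hyou1, Sel1l, Edem1, Ssr4 and the genes named by range were picked after their values were seen. Alternatives were 2 scalings, the filter, the pseudocount, a replicate block and leaving out each library, and, chosen after seeing the data, leaving out both libraries numbered 1.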

Additional observations from a re-analysis of the deposited data

Results flagged for a closer look

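Of 78 groups of 4 libraries (39 genes at 2 ages), 1 held a library far from the other 3, where chance flags about 1 in 20. Os9, for a lectin of ER-associated degradation, stood at 4.82 FPKM in PND1 replicate 1, against 11.2 to 12.2 FPKM in the other PND1 libraries.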

How the results depend on the processing

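The count of genes called stayed at 1 and that of the 39 genes at 0 under all 16 alternatives, and the log2 difference of Xbp1 (-0.97 to -0.68) kept its sign. The median difference of the 39 was -0.13 and -0.14 with the median-of-ratios and upper-quartile scalings, lay between -0.095 (PND1 replicate 1 left out) and -0.010 (PND4 replicate 1 left out) when 1 library was removed, and was 0.00037 without both libraries numbered 1. Of 28 differences and medians, 11 kept their sign under every alternative run and 17 took the other sign in at least 1. Among the latter was Sdf2l1, at -0.13 without PND1 replicate 1. The median of the SEC61 genes moved by more than its spread between libraries, to -0.13 and -0.14 with the scalings and to 0.017 without both libraries numbered 1, and that of Xbp1 and the sensors went to -0.46 when the stricter filter left only Xbp1 and Atf6. The labels give same-numbered libraries no link beyond the number. Their deviations correlated at 0.046, -0.0088, 0.032 and 0.12 across genes, and not every library correlated best with its own number. Both libraries numbered 1 listed more genes at 0 than any other library, and whether they shared a preparation was not tested. With the replicate block 1 gene was called, 0 of the 39, and Xbp1 stood at -0.81 with the 39 at a median of -0.057. Depth being unknown, the low levels of Ern1, Eif2ak3 and Sdf2l1 limit what could be detected.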
